A study of Mus musculus with 10 samples.

Results

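Peptide genes of the preoptic area and of nearby neurosecretory neurons were followed in the brains of mice given the bacterial cell wall component lipopolysaccharide (LPS). The list named 10 genes: Gal, Gnrh1, Trh, Crh, Avp, Oxt, Sst, Nts, Adcyap1 and Cartpt. Every probe set whose annotation gave exactly 1 gene, and that gene one of these, was taken. This gave 10 probe sets for 9 genes, of 34945 probe sets for 18193 genes on the array. Adcyap1 had 2 probe sets, Gnrh1 had 0 and has no value here, and each of the other genes had 1.

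The arrays came from 10 mice of the DBA1/lacJ strain, 5 of them labelled WT (wild-type) and 5 labelled mPGES-1 KO. The knockout concerns microsomal prostaglandin E synthase-1, the inducible enzyme that makes prostaglandin E2, the main fever mediator, and is encoded by Ptges. All 10 mice received 120 µg/kg of LPS into the peritoneum, and brains were taken 5 h later. Laser capture microdissection was used to cut out the preoptic region, and RNA of each mouse was amplified in 2 rounds for 1 array. The comparison asks which transcripts of this region differ between the genotypes during the LPS response. No mice without LPS were analysed here, the deleted stretch of Ptges is not named in the labels, and nor are the age and sex of the mice. The deletion is not described as limited to any cell type.

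Neuropeptides are made as precursor proteins, cut in secretory granules and released from neurons to act on receptors that mostly couple to G proteins. The preoptic area holds neurons that control body temperature, sleep, parental behaviour and reproduction, and many of them are told apart by the peptide they make. Galanin and neurotensin mark groups of preoptic neurons, the precursor gene Adcyap1 marks warmth-responsive preoptic neurons, and oxytocin and vasopressin are the hormones of the magnocellular neurons of the paraventricular and supraoptic nuclei. Corticotropin-releasing hormone drives the pituitary-adrenal stress axis, which is engaged by LPS.

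The signal of Ptges itself was dim and went against the labels, clearly so in only 1 probe set. Probe set 1439747_at gave 1.51 to 9.33 in the arrays labelled wild-type and 17.5 to 76.1 in those labelled knockout, without overlap (p = 0.0079 by an exact two-sided permutation test, which can go no lower with 5 against 5 arrays). The other 2 probe sets had means of 13.4 and 30.7 labelled wild-type and 40.2 and 37.3 labelled knockout, and overlapped between the groups (exact permutation p = 0.071 and 0.548). In each Ptges probe set the mean labelled wild-type lay below the median signal of every array labelled wild-type. The mean labelled knockout lay above the median signal of every array labelled knockout. A probe set outside the deleted part checks no label, so the groups are called by their labels and every direction rests on them. The arrays had been scaled to one trimmed mean of 200.002, but their median signal still separated the groups, at 32.0 to 44.8 in those labelled wild-type and 24.7 to 29.9 in those labelled knockout. Setting the medians equal moved the median log2 difference over all genes tested from -0.01 to 0.27. Of 10 preoptic and hypothalamic markers with a probe set, 8 were bright enough to test. Besides Gal, the progesterone receptor gene Pgr gave 1293 to 2028, the estrogen receptor gene Esr1 303 to 583, the homeobox gene Six3 221 to 370 and the calcitonin receptor gene Calcr 88.8 to 219.6. The other 5 were dim, with Six6 at 26.6 to 94.0, Hmx3 at 18.9 to 73.8 and Moxd1 at 5.52 to 169, and with Nkx2-1 (13.0 to 67.6) and Hmx2 (17.1 to 75.9) below the filter.

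Signals of the peptide genes ran from bright to the middle of the array. Galanin (Gal, probe set 1460668_at) gave the highest, with a mean of 1422 over the 10 arrays, above 94.7% of all probe sets. Oxytocin (Oxt, 1420556_at) followed with 889 (percentile 92.0). Next came Adcyap1 at 410 (1423427_at, percentile 86.7), Cartpt at 372 (1422825_at, 85.6), Nts at 312 (1422860_at, 84.1) and Crh at 298 (1457984_at, 82.2). The second probe set of Adcyap1 (1441778_at) gave 161 (percentile 76.8).

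The dimmest were Sst at 53.0 (1417954_at, percentile 60.3), Avp at 47.5 (1450794_at, 58.4) and Trh at 45.2 (1418756_at, 58.0). On single arrays Sst lay between percentiles 49.3 and 71.5, Avp between 36.3 and 65.8 and Trh between 38.0 and 65.3. The signal depends on the probes as well as on the transcript, as the 2 Adcyap1 probe sets show, so this order ranks signals and not amounts of RNA.

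Several neighbours in the order could not be separated. Gal lay above Oxt on 9 of 10 arrays, by 0.73 ± 0.52 (SD over 10 arrays, log2 scale), and Oxt lay above Adcyap1 on 10 of 10 by 1.03 ± 0.58. Adcyap1 was above Cartpt on only 5 of 10 arrays, by 0.17 ± 0.43, and Nts above Crh on 7 of 10, by 0.26 ± 0.72. Sst against Avp (0.12 ± 0.77) and Avp against Trh (0.02 ± 0.48) differed by less than their spread.

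**Figure D1:**
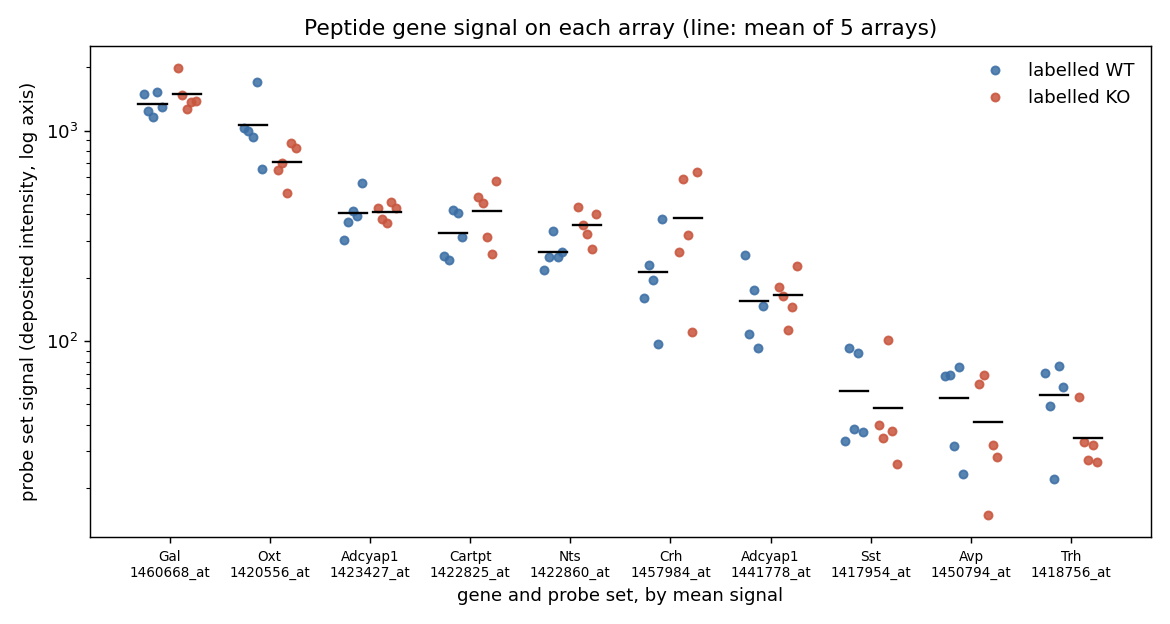
Signal of each of the 10 peptide gene probe sets on each array (vertical log axis, deposited intensity), with arrays labelled WT in blue, arrays labelled KO in red and a black line at the mean of 5 arrays. Gal and Oxt are the brightest, Sst, Avp and Trh lie near the middle of the array, and the groups overlap in every probe set.

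None of the 9 genes passed the test between genotypes. Each was tested by limma as log2(signal + 16), labelled knockout minus labelled wild-type, with a Benjamini-Hochberg adjusted p below 0.05 over 10916 genes. All 9 lay above the filter, which left out the dimmest 40% of genes. Of the peptide genes 0 passed, where 0.0733% of all genes tested did (8 genes, 2 higher and 6 lower, against 1027 higher and 26 lower with the array medians set equal), and the smallest limma adjusted p of a peptide gene was 0.228. At an unadjusted p below 0.05 there were 2 of 9, Oxt and Nts, against 17.2% of all genes. Over all 34945 probe sets tested singly, 0 of the 10 passed, as did 0% of all.

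By direction, 5 were higher and 4 lower, and 49.1% of all genes tested were higher. The median log2 difference was 0.04 in the peptide genes and -0.01 over all genes. The dimmest peptide genes, Sst, Avp and Trh, were all lower, and of the brighter ones only Oxt was. With quantile normalization Sst, Avp and Trh were at -0.03, -0.08 and -0.20. Over all genes the median was -0.09 with no filter and 0.04 with the dimmest 60% left out. The part of signal level in these directions was not tested. In 0 of the 9 were the 5 arrays of one group wholly apart from the other 5, which held for 4.68% of all genes. The log2(signal + 16) scale understates folds of dim genes. In whole tissue, fewer cells of a type and less RNA per cell cannot be told apart.

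**Figure D2:**
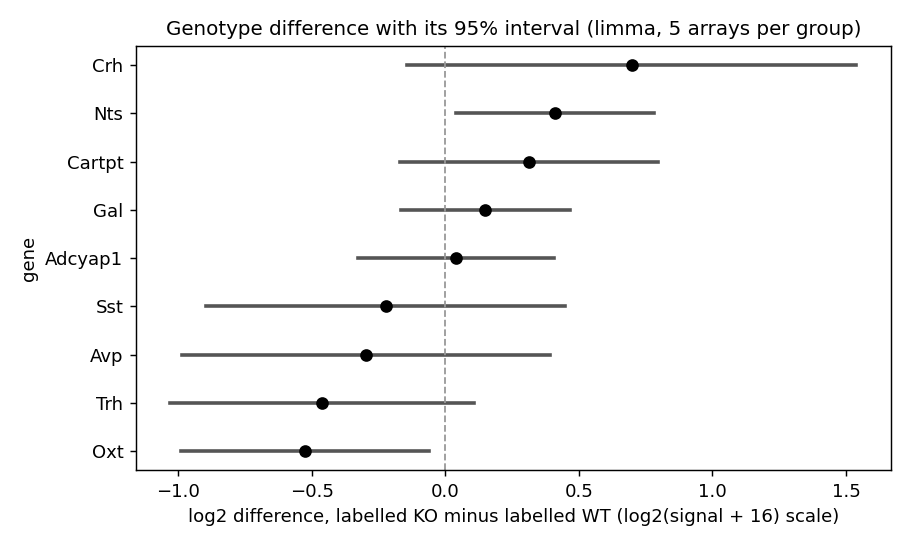
Log2 difference of each peptide gene, labelled KO minus labelled WT, on the log2(signal + 16) scale, with its 95% interval from limma (5 arrays per group). Oxt is at -0.53 and Nts at 0.41, both with intervals clear of 0 before adjustment, and the interval of Crh is the widest.

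Oxt was lower on average in the mice labelled knockout and overlapped between the groups. Replicates 1 to 5 labelled wild-type gave 1033, 1000.1, 932, 1704 and 657, and those labelled knockout 648, 706, 507, 876 and 828. Wild-type replicate 4 was the highest of all, 5 of 5 knockout arrays lay below the wild-type median, and 2 of them below every wild-type array. Means were 713 ± 147 (SD, n = 5) labelled knockout and 1065 ± 387 labelled wild-type, a log2 difference of -0.53 (SE 0.22, limma adjusted p = 0.228, exact permutation p = 0.063). Fitted folds from 0.503 to 0.958 lay within the 95% interval. The difference was -0.34 without wild-type replicate 4 and also with the hybridization control signal of each array as a covariate. With the array medians set equal it was -0.25. Other settings made it larger, at -0.68 without wild-type replicate 5 (limma adjusted p = 0.147) and -0.60 with quantile normalization. With a block for poly-A control signal it was -0.64 (limma adjusted p = 0.113), and in the 7 arrays with that signal -0.63.

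Avp, the vasopressin gene, is the immediate neighbour of Oxt on chromosome 2 in the RefSeq gene order, with 0 genes between them, on the opposite strand. The signals of Avp were 68.3, 69.1, 31.8, 75.6 and 23.2 in wild-type replicates 1 to 5 and 62.9, 69.0, 14.9, 32.0 and 28.2 in knockout replicates 1 to 5. High and low arrays occurred in both groups. The log2 difference was -0.30 (SE 0.33, limma adjusted p = 0.674), with a 95% interval from -0.99 to 0.39. A covariate for the hybridization control signal turned it to 0.02. It was -0.10 without knockout replicate 3, -0.18 without wild-type replicate 4, -0.46 without knockout replicate 2 and -0.48 without wild-type replicate 5.

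Deviations of Avp and Oxt from their group means had a Pearson r of 0.557 and a Spearman rho of 0.491 (n = 10 arrays, permutation p = 0.097 and 0.154, Benjamini-Hochberg adjusted over 36 pairs 0.671 and 0.806). Without wild-type replicate 5 and knockout replicate 3, where both genes were low, r was 0.04, so the relation rests on those arrays. Other genes that mark the paraventricular and supraoptic nuclei did not pass either. The transcription factor genes Otp, Pou3f2 and Arnt2 were at -0.18 (SE 0.28), -0.15 (SE 0.31) and 0.26 (SE 0.17), and Sim1 was too dim for the test. The summed signal of the 6 markers of these nuclei, Oxt and Avp included, was 1201 to 2778 in arrays labelled wild-type and 1121 to 1691 in those labelled knockout. Oxt was far the brightest of them (mean 1065 labelled wild-type, with Otp next at 316), so this sum largely follows Oxt itself. The part of tissue from these nuclei in the value of Oxt was not tested.

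Crh, the gene of corticotropin-releasing hormone, varied most between mice. Wild-type replicates 1 to 5 gave 161, 231, 196, 96.6 and 382, and knockout replicates 266, 588, 318, 110.3 and 634. Knockout replicates 2 and 5 lay above every wild-type array, while knockout replicate 4 lay below 4 of the 5. The highest array was 6.57 times the lowest, and the spread within groups (0.83 on the log2 scale) was larger than that of 98.6% of genes tested, where the median was 0.32. The means were 383 ± 222 labelled knockout and 213 ± 107 labelled wild-type (SD, n = 5). The log2 difference of 0.70 (SE 0.40, limma adjusted p = 0.379) had a 95% interval from -0.14 to 1.54. The replicate numbers ran in the same order in both groups, each knockout array above the wild-type array of that number. Over all genes tested, deviations of same-numbered arrays correlated at only -0.127 to 0.067, so the numbers were not taken to pair the arrays. A block for the replicate number left the difference at 0.70, with an SE of 0.20 (limma adjusted p = 0.157). It was 1.06 without knockout replicate 4, 1.09 in the 7 arrays with poly-A control signal, 0.47 without knockout replicate 5 and turned to -0.05 with the hybridization control signal as a covariate, which was 10.2 to 11.1 on the log2 scale in arrays labelled knockout and 10.8 to 12.2 in those labelled wild-type.

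Trh, which encodes the precursor of thyrotropin-releasing hormone, was dim. Its signals were 70.4, 49.3, 22.2, 75.8 and 60.5 in wild-type replicates 1 to 5 and 54.4, 33.2, 27.4, 32.1 and 26.5 in knockout replicates 1 to 5. All 5 knockout arrays lay below the wild-type median, but wild-type replicate 3 was the lowest of the 10. The log2 difference was -0.46 (SE 0.27, limma adjusted p = 0.391), with a 95% interval from -1.03 to 0.11, and it was -0.18 with the array medians set equal.

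Gal, the gene of galanin, was the steadiest of the 9, with a spread within groups of 0.21 on the log2 scale, larger than that of 15.4% of genes tested. Wild-type replicates 1 to 5 gave 1498, 1238, 1158, 1521 and 1300.4, and knockout replicates 1982, 1487, 1276, 1373 and 1391. Only knockout replicate 1 stood above the wild-type range. The log2 difference was 0.15 (SE 0.15, limma adjusted p = 0.636), and the 95% interval of the fold ran from 0.892 to 1.38. Without knockout replicate 1 the difference was 0.05. With the array medians set equal it was 0.43 (SE 0.17, limma adjusted p = 0.097), where the median over all genes was 0.27.

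Nts, the precursor gene of neurotensin, a peptide that lowers body temperature when given into the brain, was higher on average in the mice labelled knockout. The signals were 218, 251.7, 336, 252.5 and 265 in wild-type replicates 1 to 5 and 434, 357, 323, 275 and 403 in knockout replicates 1 to 5. Every knockout array was above the wild-type median, 3 were above every wild-type array, and wild-type replicate 3 overlapped with the knockout arrays. Means were 358 ± 62.9 labelled knockout and 265 ± 43.3 labelled wild-type (SD, n = 5), a fitted fold of 1.33 with a 95% interval from 1.03 to 1.72. The log2 difference of 0.41 (SE 0.17) had a limma adjusted p of 0.238 and an exact permutation p of 0.032. With the array medians set equal it was 0.69 and passed (limma adjusted p = 0.036), where the median over all genes was 0.27.

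Cartpt encodes the precursor of cocaine- and amphetamine-regulated transcript, a peptide that lowers food intake. Wild-type replicates 1 to 5 gave 254, 243, 421, 408 and 312, and knockout replicates 486, 452, 314, 259.5 and 575. Knockout replicates 1, 2 and 5 were above the wild-type range and replicates 3 and 4 within it. The log2 difference was 0.31 (SE 0.23, limma adjusted p = 0.498), with a 95% interval from -0.17 to 0.80. It was 0.59 with the array medians set equal, 0.18 with the hybridization control covariate and 0.19 without knockout replicate 5.

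Markers of striatal projection neurons, which lie next to the preoptic region and use peptides of their own, were also higher on average in the mice labelled knockout. Of 6 tested, 5 were higher and 1 lower, with a median of 1.33 and 1 past the threshold, Tac1 (1.42, limma adjusted p = 0.031), while Pde10a was at 1.60 (limma adjusted p = 0.056). The summed signal of the 9 markers with a probe set was 1207 to 1873 in arrays labelled wild-type and 1727 to 6292 in those labelled knockout, and Ppp1r1b and Drd2, defining markers of these neurons, stayed below 37.8 on each array. Their part in the values of Nts, Cartpt and Crh was not tested. Choroid plexus and ependymal markers were higher in 3 of 3 tested (median 0.34). That median is the value of Ttr (SE 0.79), which gave 1386 ± 2671 (SD, n = 5) labelled knockout, with 6161 on its highest array. Septal markers were lower in 3 of 3 (median -0.09), endothelial markers in 4 of 4 (median -0.35) and microglial markers in 3 of 3 (median -0.58), the last with Csf1r far the brightest and P2ry12 and Tmem119 too dim to test. Of these 4 lists 0 genes passed.

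Between Nts and Cartpt the correlation over mice was among the highest of the 36 pairs of peptide genes but did not pass after adjustment. Their deviations from the group means had r = 0.832 (Pearson) and rho = 0.818 (Spearman, n = 10 arrays, permutation p = 0.0032 and 0.0061, Benjamini-Hochberg adjusted over 36 pairs 0.062 and 0.109). Wild-type replicate 3 and knockout replicates 1 and 5 were high in both, and wild-type replicate 1 and knockout replicate 4 were low in both. Without wild-type replicate 3 and knockout replicate 4, the arrays farthest out in Nts, r was 0.730. On 3 arrays the poly-A spike-in controls gave no signal, and over the other 7 r was 0.868. The adjusted permutation p of r fell below the threshold without wild-type replicate 4 (r = 0.915, adjusted permutation p = 0.024) and with the array medians set equal (r = 0.885, adjusted permutation p = 0.033). It was furthest from it without knockout replicate 4 (r = 0.744, adjusted permutation p = 0.385). The permutation did not allow for the group means removed beforehand, so its p can be too small, which matters most for values just below the threshold.

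Gal and Trh formed the other pair with a high correlation, which did not pass either, with r = 0.835 and rho = 0.879 (permutation p = 0.0035 and 0.0017, adjusted over 36 pairs 0.062 and 0.061, 10 arrays). Knockout replicate 1 and wild-type replicates 1 and 4 were high in both genes. Without wild-type replicate 4 and knockout replicate 1 r was 0.775, and over the 7 arrays whose poly-A controls gave signal r was 0.889. Wild-type replicate 3 was low in both. With the group means kept in, r was 0.463 for Gal and Trh and 0.822 for Nts and Cartpt. With group means removed, Gal and Trh passed without wild-type replicate 3 (r = 0.960, adjusted permutation p = 0.0094) and without knockout replicate 1 (r = 0.841, adjusted permutation p = 0.033). They also passed with the array medians set equal (r = 0.832, adjusted permutation p = 0.047). The same limit of the permutation applies to these p.

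Gal and Avp came next at r = 0.685 and rho = 0.721 (permutation p = 0.027 and 0.024, adjusted 0.324 and 0.286), and r was 0.60 without wild-type replicate 4 and knockout replicate 1. Of the 36 pairs 0 passed after adjustment, and 3 had an unadjusted p of r below 0.05. How often pairs of other genes on these arrays reach such values was not tested, so the count does not set the peptide genes apart.

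**Figure D3:**
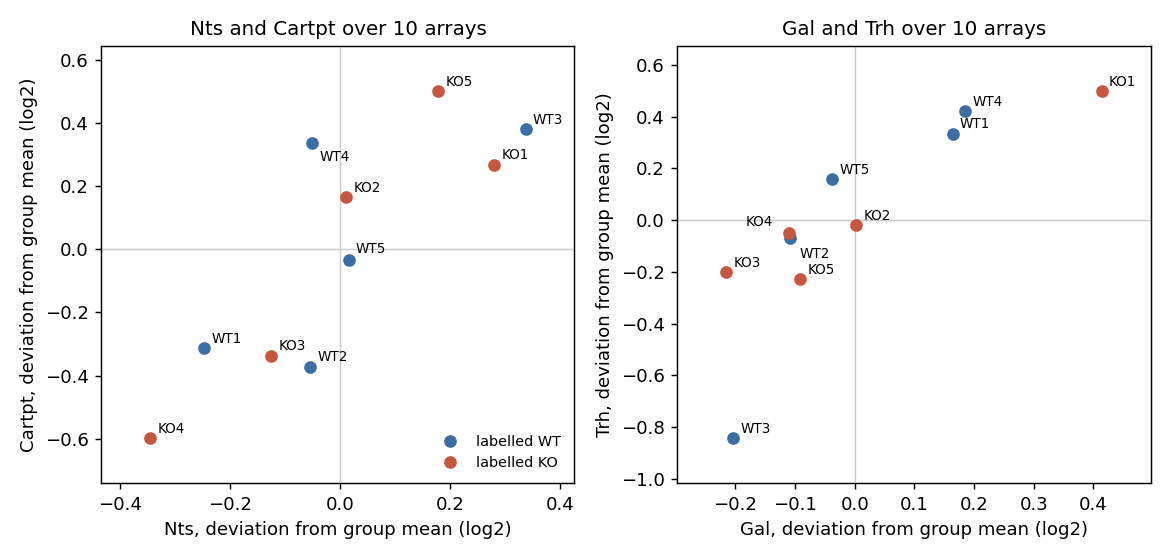
Deviation of each array from its group mean on the log2(signal + 16) scale, for Nts against Cartpt (left) and Gal against Trh (right), with arrays labelled WT in blue and arrays labelled KO in red. Points run from low in both genes to high in both, with r = 0.832 on the left and r = 0.835 on the right over 10 arrays.

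Arrays stood out in different genes. Wild-type replicate 4 had the highest Trh, Avp and Oxt and the lowest Crh of the 10 arrays. Knockout replicate 5 had the highest Crh and Cartpt and the lowest Sst, and knockout replicate 1 had the highest Gal and Nts. Knockout replicate 3 had the highest Sst and the lowest Avp and Oxt. No array was thus high or low in all 9 genes.

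**Figure D4:**
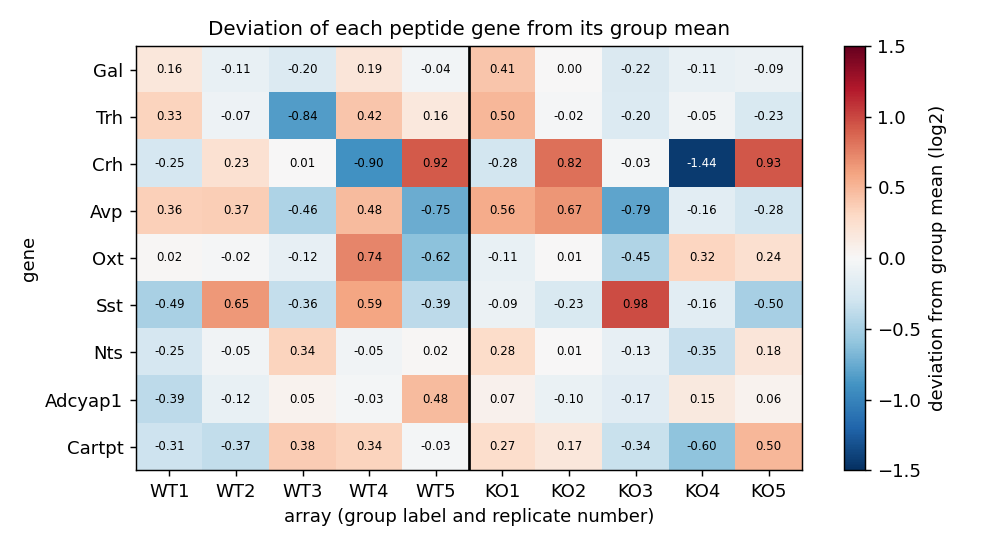
Deviation of each of the 9 peptide genes (rows) from its group mean on each array (columns), on the log2(signal + 16) scale, with red for above and blue for below. Crh ranges from -1.44 in KO replicate 4 to 0.93 in KO replicate 5, while Gal stays between -0.22 and 0.41.

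Adcyap1 encodes the precursor of pituitary adenylate cyclase-activating polypeptide, which raises cyclic AMP in the cells that carry its receptor. Probe set 1423427_at gave 301, 367, 414, 392 and 563 in wild-type replicates 1 to 5 and 431, 381, 363, 458 and 428 in knockout replicates 1 to 5. The lowest and the highest arrays were both labelled wild-type, and all 5 knockout arrays lay between them. The log2 difference was 0.04 (SE 0.17, limma adjusted p = 0.929), with a 95% interval of the fold from 0.798 to 1.33. It turned to -0.03 with quantile normalization, to -0.16 with the hybridization control covariate and to -0.06 without wild-type replicate 1.

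Probe set 1441778_at of the same gene gave 256, 109, 175, 93.1 and 147 in the wild-type and 181, 164, 114, 146 and 228 in the knockout arrays, with a log2 difference of 0.13 (SE 0.25, limma adjusted p over probe sets = 0.856). Between the 2 probe sets r was -0.145 and rho 0.03 over the 10 arrays (permutation p = 0.698 and 0.946). Wild-type replicate 1 was the lowest array in one and the highest in the other, and without wild-type replicates 1 and 5 r was 0.549.

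Sst, the gene of somatostatin, an inhibitory peptide of interneurons and of hypothalamic neurons that restrain growth hormone, gave 33.5, 93.1, 38.1, 88.3 and 37.1 in wild-type replicates 1 to 5. Knockout replicates gave 39.97, 34.8, 101, 37.4 and 26.0. Wild-type replicates 2 and 4 and knockout replicate 3 were high, and the other 7 arrays were at or below 39.97. The log2 difference was -0.22 (SE 0.32, limma adjusted p = 0.759), with a 95% interval from -0.89 to 0.45. It turned to 0.06 with the array medians set equal and to 0.31 with the hybridization control covariate. Without knockout replicate 3 it was -0.47, without wild-type replicate 1 -0.34, without wild-type replicates 2 or 4 -0.059 and -0.075, and without knockout replicate 5 -0.096.

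Promoter sequence was looked up for the peptide genes, since several are textbook targets of cyclic AMP, the messenger that prostaglandin E2 receptors raise or lower. RefSeq promoter windows (assembly GRCm38.p6) were found for 8 of the 10 genes, all but Crh and Gnrh1, and the 250 bases before the gene start were searched on both strands. The cyclic AMP response element (CRE), TGACGTCA, was present in Sst and Cartpt and in 1.55% of all 32851 windows. Its shorter form TGACG, which the full element contains, was present in Trh, Sst, Nts, Adcyap1 and Cartpt and in 17.8% of all windows. An AP-1 site, TGACTCA or in reverse TGAGTCA, was present in Nts (4.46% of all windows), and an E-box, CACGTG, in Avp (6.02%). Peptide genes were counted if any of their windows matched, while the shares are over single windows, so the 2 are not like for like. A match describes these letters and is no evidence of binding.

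The 3 windows shown are those of the full element and that of Nts, whose correlation with Cartpt over the arrays did not pass after adjustment. Nts was chosen with that correlation known, and a link between it and these sequences was not tested. Capitals mark the CRE in Sst, 48 bases before the gene start (chr16:23890845-23890969, minus strand), and in Cartpt, 112 bases before it (chr13:99900684-99900808, minus strand), and the AP-1 site in Nts, 207 bases before it (chr10:102490419-102490628, minus strand). Each runs 5′ to 3′ and ends at the base before the gene start.
Sst: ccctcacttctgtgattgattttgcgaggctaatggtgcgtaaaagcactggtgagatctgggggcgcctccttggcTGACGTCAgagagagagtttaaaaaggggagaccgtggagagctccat
Cartpt: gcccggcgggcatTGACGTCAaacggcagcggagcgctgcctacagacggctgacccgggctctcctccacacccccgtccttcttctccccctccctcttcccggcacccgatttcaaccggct
Nts: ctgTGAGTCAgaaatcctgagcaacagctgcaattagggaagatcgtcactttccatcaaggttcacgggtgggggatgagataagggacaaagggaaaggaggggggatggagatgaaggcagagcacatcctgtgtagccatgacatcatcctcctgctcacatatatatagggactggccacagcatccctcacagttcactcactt
For Sst and Cartpt, which share the full element, r was -0.306 and rho -0.442 over the 10 arrays (permutation p = 0.382 and 0.204, adjusted over 36 pairs 0.891 and 0.806), and r was 0.162 without wild-type replicate 2 and knockout replicate 3.

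Receptors and binding proteins of these peptides were mostly dim. Of 24 listed, 23 had a probe set, 10 were bright enough to test, and 0 passed in either direction, with 4 higher, 6 lower and a median of -0.12. The brightest were Adcyap1r1, the receptor for the Adcyap1 peptide, at 1756 labelled wild-type and 1670.3 labelled knockout (log2 difference -0.07, SE 0.14), and the neurotensin receptor gene Ntsr2 at 1286 and 1129 (-0.18, SE 0.19). The smallest p were in receptors for somatostatin, Sstr5 at -0.68 (SE 0.25, limma adjusted p = 0.182) and Sstr2 at -0.51 (SE 0.21, limma adjusted p = 0.221). Sstr4 lay on the other side at 0.59 (SE 0.27, limma adjusted p = 0.275). The oxytocin receptor gene Oxtr was at -0.46 (SE 0.24, limma adjusted p = 0.346).

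Of 15 listed genes that process peptide precursors and build secretory granules, 14 had a probe set. All 14 were tested and 0 passed, with 5 higher, 9 lower, a median of -0.07 and 0 at an unadjusted p below 0.05. Chgb, encoding the granule protein chromogranin B, was at -0.27 (SE 0.15, limma adjusted p = 0.376) and Cpe, encoding the precursor-trimming carboxypeptidase E, at 0.26 (SE 0.18, limma adjusted p = 0.475). The convertase gene Pcsk1, with mean signals of 123 labelled wild-type and 104 labelled knockout, was at -0.16 (SE 0.23).

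Transcription factors of peptide neurons gave 0 of 12 tested past the threshold, with 2 higher, 10 lower and a median of -0.17. Over all genes tested 49.1% were higher and the median was -0.01. Otx2 was at -0.70 (SE 0.24, limma adjusted p = 0.152) and Vax1, a homeobox gene needed for gonadotropin-releasing hormone neurons, at -0.65 (SE 0.24, limma adjusted p = 0.182). Of the peptides of other hypothalamic nuclei, 3 of 12 could be tested and 0 passed. Vip, a peptide of the suprachiasmatic nucleus, which borders the preoptic area, ranged from 156 to 1585 (log2 difference 0.80, SE 0.46, limma adjusted p = 0.384), and Pomc and Npy were at -0.03 and -0.04 (limma adjusted p = 0.954 and 0.960). The peptide genes Hcrt and Pmch of the lateral hypothalamus were too dim to test.

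Genes whose levels most resembled each peptide gene were taken from 10907 others above the filter, as the highest Pearson r over the 10 arrays with group means removed. Because they are the highest of so many, these values are a description with no test. For Adcyap1 (1423427_at) they were Glrx (r = 0.977), Osmr (0.963) and Gadd45g (0.937), with wild-type replicate 5 the highest array in Adcyap1. For Trh they were Nudc (0.981), Pigx (0.956) and Srfbp1 (0.948), and for Gal Ky (0.910), Sec11a (0.905) and Lnx1 (0.901).

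Nts was closest to Ip6k2 (0.930), Cebpb (0.887) and Sh3yl1 (0.885), and Cartpt to Dolk (0.95), Lca5l (0.889) and 1700029I15Rik (0.888). Crh was closest to Usp21 (0.880), Etv3 (0.879) and Dock4 (0.838), and Sst to Ipo11 (0.951), Sesn1 (0.95) and Ogfod1 (0.941). For Oxt they were Eif2b2 (0.925), Dynlt1f (0.913) and Ing5 (0.905), and for Avp Trabd (0.898), Cenpk (0.887) and Fancc (0.885). The lists of the 9 peptide genes shared 0 genes.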

How the data were processed

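Gene expression was measured on 10 arrays, 1 per mouse, 5 per group, with groups taken from the sample titles. The deposited files hold 1 linear-scale intensity per probe set. The submitters' processing notes name GCOS (version and detection calls not given in the sources used here). Each array had a trimmed mean intensity of 200.002, so the authors' scaling acted on whole arrays. Probe sets were named from the platform annotation, which can be old. Each of 18193 genes was represented by its brightest probe set, with names ending in _x_at used last, and the dimmest 40% were left out (mean log2 value below 5.83).

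Tests used limma 3.58.1 in R 4.3.3 (lmFit, eBayes with an intensity trend) on log2(intensity + 16), and two-sided exact permutation tests over all arrangements of the arrays. Correlations used 100000 permutations of the deviations over all arrays, without regard to group. The group means removed beforehand were not allowed for, so these p can be too small. Python 3.11.15 with pandas 2.3.3, numpy 2.4.6, scipy 1.17.1 and matplotlib 3.10.9 did the rest, and the limma procedure was tested on simulated data. The members and lists were chosen with earlier results of these data known. Genes named beside the members are, for each list, the 2 tested genes with the smallest p and any past the threshold, the 3 genes most like each member, and Ptges. Marker genes and other genes of the lists named outside this rule were chosen after their values were seen. Alternatives were other pseudocounts, scalings, filters, probe set rules, weights and blocks, technical covariates, and each array left out.

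Replicates are separate mice by the descriptions.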

Additional observations from a re-analysis of the deposited data

Results flagged for a closer look

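In 2 of the 20 groups of 5 arrays looked at, 1 array lay far from the other 4, and chance gives this in about 1 in 20 groups. Trh in knockout replicate 1 gave 54.4, where the next highest array labelled knockout gave 33.2. Sst in knockout replicate 3 gave 101, where the next highest gave 39.97, while 2 arrays labelled wild-type reached 93.1 and 88.3.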

How the results depend on the processing

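Of the peptide genes tested in each setting, 0 passed limma's threshold except with array medians set equal, where 1 passed (Nts, 0.69). With that setting 2 pairs of peptide genes had an adjusted permutation p of r below the threshold, and leaving out single arrays gave 0 to 1. Signs turned for Crh (-0.049), Avp (0.017), Sst (0.31) and Adcyap1 (-0.16) with the hybridization control signal as a covariate, for Sst (0.058) with array medians set equal, for Adcyap1 (-0.027) with quantile normalization and for Adcyap1 without wild-type replicate 1 (its range without single arrays was -0.056 to 0.161). The count over all genes, 8 as reported, was 24 with a pseudocount of 64, 1053 with array medians set equal (1027 higher, 26 lower, against 2 and 6), 3 with no filter, 65 with the dimmest 60% left out, 1 with the mean of probe sets, 112 with array weights and 16 with the poly-A spike-in block. It was 0 with quantile normalization, without an intensity trend, with the hybridization control covariate, in the 7 arrays with poly-A spike-in signal and with all probe sets tested singly (smallest limma adjusted p 0.081, 0.075, 0.169, 0.187 and 0.091, with 1634, 1883, 1317, 1512 and 4543 at an unadjusted p below 0.05). Without single arrays it was 0 (wild-type replicates 1, 2 and 4, knockout replicates 2, 3 and 5, with 1542 to 1904 at an unadjusted p below 0.05) to 39 (wild-type replicate 3), with 29 without wild-type replicate 5, 31 without knockout replicate 1 and 5 without knockout replicate 4. It was 2 with the replicate block, which called 0 peptide genes. Deviations of same-numbered arrays correlated at -0.127 to 0.067 over all genes tested, so the numbers were not taken to pair the arrays. The cause was not tested. Sst, Avp and Trh were too dim with the dimmest 60% left out, Sst also in the 7 arrays, and Trh also without wild-type replicate 1 or 4, and were not tested there. Precision is limited by there being 5 arrays a group.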
